A study of Mus musculus with 52 samples.

Results

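Ptx3, Angptl8, Enpp3 and Rarres2 are 4 genes, of 27525 with a row in the deposited table, that were chosen by their normalized counts, which were lower in KPC tumors given the STING agonist ADU-S100 alone than in untreated tumors. The difference that selected them is therefore given only as a description. All groups were C57BL/6 mice carrying subcutaneous tumors grown from syngeneic KPC (KxPxCx) pancreatic adenocarcinoma cells, which derive from a mouse model with a Pdx1-driven Cre. Every tumor was resected on day 14, and each group had 8 tumors. Untreated mice received neither agent, and ADU-S100 mice received 1 intratumoral injection of 2 µg per tumor. Anti-LTβR mice received the agonistic antibody 4H8 intraperitoneally (4 doses of 100 µg), and combination mice received both. Whether the 8 tumors of a group came from 8 separate mice is not stated. Poly(A) RNA of each tumor was sequenced on its own, with 12762453 to 15591986 reads assigned to genes per tumor, and a level below is a normalized count, the reads of a gene divided by 1 size factor per library. Another 20 libraries, 5 for each of the letters A to D in their titles, come from a second experiment whose labels conflict on treatment.

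ADU-S100 mimics cGAMP, the second messenger that cGAS makes from cytosolic DNA and that STING senses to start type I interferon and NF-κB signaling. LTβR is a TNF-family receptor of stromal and myeloid cells that signals through noncanonical NF-κB and drives the growth of lymphoid tissue. All 4 genes code for proteins that act outside or on the surface of cells. PTX3 is a soluble pattern recognition molecule of the pentraxin family, made by myeloid cells, fibroblasts and endothelium on stimulation by IL-1, TNF or Toll-like receptor ligands. ANGPTL8 is a fat- and liver-derived protein that takes part in the inhibition of lipoprotein lipase. ENPP3, also known as CD203c, is a membrane ectonucleotidase that cleaves extracellular nucleotides and is used as a marker of activated basophils and mast cells. RARRES2 is the precursor of chemerin, an adipokine and chemoattractant of macrophages, dendritic cells and natural killer cells, which proteases activate by trimming its end. In mm39 as the deposited table places them, Ptx3 (ENSMUSG00000027832) lies at chr3:66127331-66133226 on the plus strand, Angptl8 (ENSMUSG00000047822) at chr9:21746806-21748643 on the plus strand, Enpp3 (ENSMUSG00000019989) at chr10:24648304-24718721 on the minus strand, and Rarres2 (ENSMUSG00000009281) at chr6:48546630-48549723 on the minus strand, and all 4 are protein-coding.

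By their group means with both agents, the 4 genes split into 2 courses over the groups. Ptx3 and Angptl8 were low with either agent alone, and their means came back only part of the way when both agents were given. Enpp3 and Rarres2 were lowest with ADU-S100 alone and had a higher mean with both agents than in untreated tumors. Enpp3 was also low with the antibody alone, at 58.0% of the untreated mean, while Rarres2 was at 86.2%. As the choice of the genes used ADU-S100 and untreated tumors, every difference of the 4 genes between groups that involves these 16 tumors is descriptive. The only group comparison of the main experiment in which the 4 genes were tested is combination against anti-LTβR tumors, which adds ADU-S100 to antibody-treated mice and uses other tumors. Tests were also run on their variation within groups and on other genes.

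Ptx3 was lowest, median and highest at 77.8, 240.5 and 327.5 normalized counts in untreated tumors. With ADU-S100 alone the same values were 23.2, 54.2 and 93.4. Tumors 6 and 8 were the low untreated tumors, and 7 of 8 untreated tumors stood above every ADU-S100 tumor. The means were 221 ± 88.9 (SD, n = 8) untreated and 55.4 ± 19.9 (SD, n = 8) with ADU-S100, so ADU-S100 tumors held 25.1% of the untreated mean, a log2 difference of −1.93 (SE 0.30). Anti-LTβR tumors ran from 36.1 through a median of 53.2 to 70.2, with a mean of 51.9 ± 12.7 (SD, n = 8), which is 23.5% of the untreated mean. All 8 anti-LTβR tumors lay below every untreated tumor, and their range fell inside that of ADU-S100 tumors. In combination tumors Ptx3 ran from 81.1 through 94.7 to 140.5, with a mean of 104.8 ± 22.8 (SD, n = 8). This is 47.5% of the untreated mean, and it regained 29.9% of the gap between untreated and ADU-S100 tumors. Against ADU-S100 tumors the log2 difference was +0.97 (SE 0.21), and 4 of 8 combination tumors stood above every ADU-S100 tumor. The order of the group means was therefore untreated, combination, ADU-S100 and anti-LTβR, and the last 2 overlapped almost entirely.

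Angptl8 was the gene with the fewest reads, between 11 and 23 per untreated tumor, and its values are correspondingly coarse. It ran from 10.5 through a median of 14.4 to 22.7 normalized counts in untreated tumors, with a mean of 15.2 ± 4.05 (SD, n = 8). In ADU-S100 tumors, with 1 to 11 reads each, it ran from 0.987 through 3.59 to 10.8, with a mean of 4.05 ± 2.95 (SD, n = 8). A single tumor, ADU-S100 tumor 4, reached the untreated range, and the log2 difference was −1.82 (SE 0.30). The antibody alone gave 0 to 8.71 with a median of 3.12 and a mean of 3.53 ± 2.61 (SD, n = 8), all below every untreated tumor. No read was counted in anti-LTβR tumor 1, which allows up to 3 reads, or 2.88 normalized counts. Combination tumors ran from 3.46 through 6.64 to 10.6, with a mean of 7.02 ± 2.31 (SD, n = 8), which is 46.2% of the untreated mean and 26.7% of the gap regained. Against ADU-S100 tumors the log2 difference, fitted without the filter on low counts, was +0.79 (SE 0.32). No combination tumor stood above every ADU-S100 tumor. In comparisons with untreated tumors Angptl8 passed the filter on low counts only through the untreated group, and in the others it did not pass.

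Enpp3 ran from 21.1 through a median of 47.8 to 76.8 normalized counts in untreated tumors, with a mean of 47.9 ± 15.1 (SD, n = 8). In ADU-S100 tumors it ran from 17.0 through 21.2 to 28.5, with a mean of 22.5 ± 4.67 (SD, n = 8). Untreated tumor 6 was the one untreated tumor inside the ADU-S100 range, and the log2 difference was −1.01 (SE 0.20). Anti-LTβR tumors ran from 15.3 through 28.9 to 38.1, with a mean of 27.8 ± 6.89 (SD, n = 8), 58.0% of the untreated mean. Of the 8 untreated tumors 7 lay above every anti-LTβR tumor. Combination tumors ran from 32.2 through 65.3 to 82.7, with a mean of 62.2 ± 15.0 (SD, n = 8). Every combination tumor exceeded every ADU-S100 tumor, at a log2 difference of +1.41 (SE 0.18), and the combination mean was 129.7% of the untreated mean. Combination and untreated tumors overlapped, with 1 combination tumor above every untreated one.

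Rarres2 ran from 564 through a median of 853 to 1086 normalized counts in untreated tumors, with a mean of 852 ± 154 (SD, n = 8). ADU-S100 tumors ran from 316 through 513 to 721, with a mean of 514 ± 147 (SD, n = 8). Of the 8 untreated tumors 7 exceeded every ADU-S100 tumor, at a log2 difference of −0.76 (SE 0.17). The antibody alone left Rarres2 closest to the untreated level, from 522 through 634 to 1028 with a mean of 735 ± 208 (SD, n = 8), which is 86.2% of the untreated mean. In combination tumors it ran from 779 through 1096 to 2037, with a mean of 1192 ± 403 (SD, n = 8). All 8 combination tumors lay above every ADU-S100 tumor at a log2 difference of +1.20 (SE 0.20), and 4 lay above every untreated tumor. Combination tumor 5 was the highest.

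**Figure D1:**
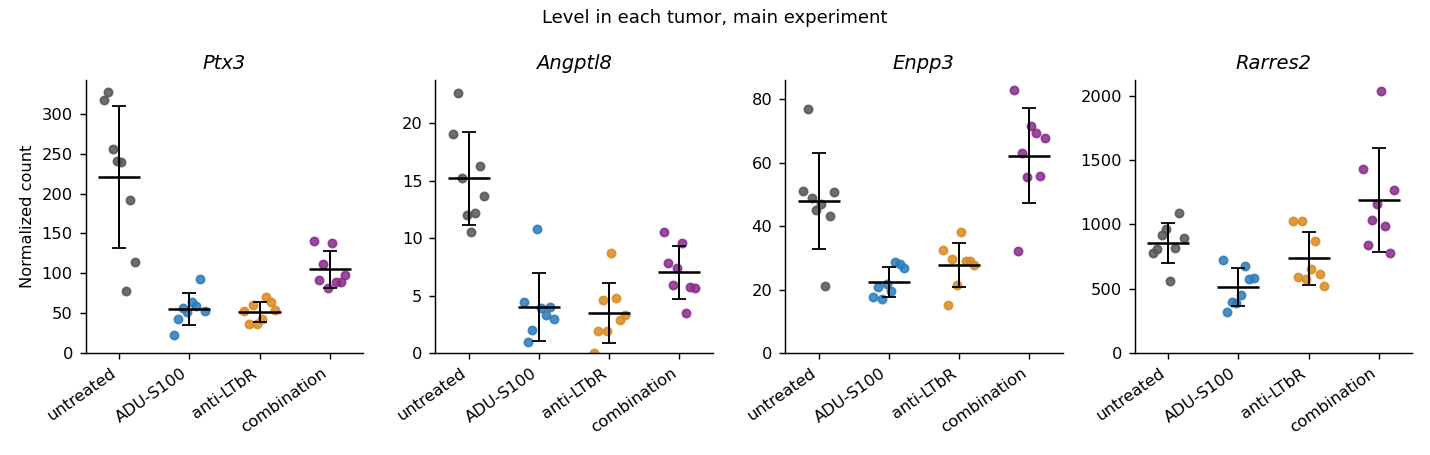
Normalized count (y axis, linear from 0) of Ptx3, Angptl8, Enpp3 and Rarres2 in each of 8 tumors per group (x axis), with the group mean as a horizontal line and bars of 1 SD. Ptx3 and Angptl8 stay below the untreated mean in every treated group, whereas the combination means of Enpp3 (62.2) and Rarres2 (1192) lie above the untreated means (47.9 and 852).

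By the size of the log2 difference between ADU-S100 and untreated tumors Ptx3 stood at rank 13, Angptl8 at 20, Enpp3 at 162 and Rarres2 at 287 of 16613 genes tested, and C1rb had the most negative difference at −3.25 (SE 0.74). After Benjamini-Hochberg adjustment 0% of genes passed an adjusted p of 0.05 in either direction by limma, while 2408 had an unadjusted p under 0.05. DESeq2 on whole reads called 46 genes higher and 11 lower, and edgeR called 0 higher and 1 lower.

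In mice that also received the antibody, ADU-S100 was accompanied by higher levels of Ptx3, Enpp3 and Rarres2, while Angptl8 had a higher mean but was not called. In combination against anti-LTβR tumors 11.3% of 16932 genes were called higher and 15.3% lower (limma, adjusted p under 0.05), which is the background for each value here. Ptx3 was higher by 1.01 on the log2 scale (SE 0.16, 95% interval 0.67 to 1.35, limma adjusted p = 0.000892), and 8 of 8 combination tumors exceeded every anti-LTβR tumor. The two-sided exact permutation p for Ptx3 was 0.000155, the smallest that 12870 splits of 16 tumors can give. Enpp3 was higher by 1.13 (SE 0.19, interval 0.72 to 1.54, limma adjusted p = 0.00116, exact permutation p = 0.000466), with 7 of 8 combination tumors above every anti-LTβR tumor. Rarres2 was higher by 0.68 (SE 0.19, interval 0.27 to 1.09, limma adjusted p = 0.0170, exact permutation p = 0.00622), with 5 of 8 above. Angptl8, fitted without the filter on low counts, was higher by 1.01 (SE 0.37, interval 0.23 to 1.79), with 2 of 8 tumors above every anti-LTβR tumor. Its limma adjusted p of 0.0776 missed the threshold, and its exact permutation p as a single gene was 0.00995.

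**Figure D2:**
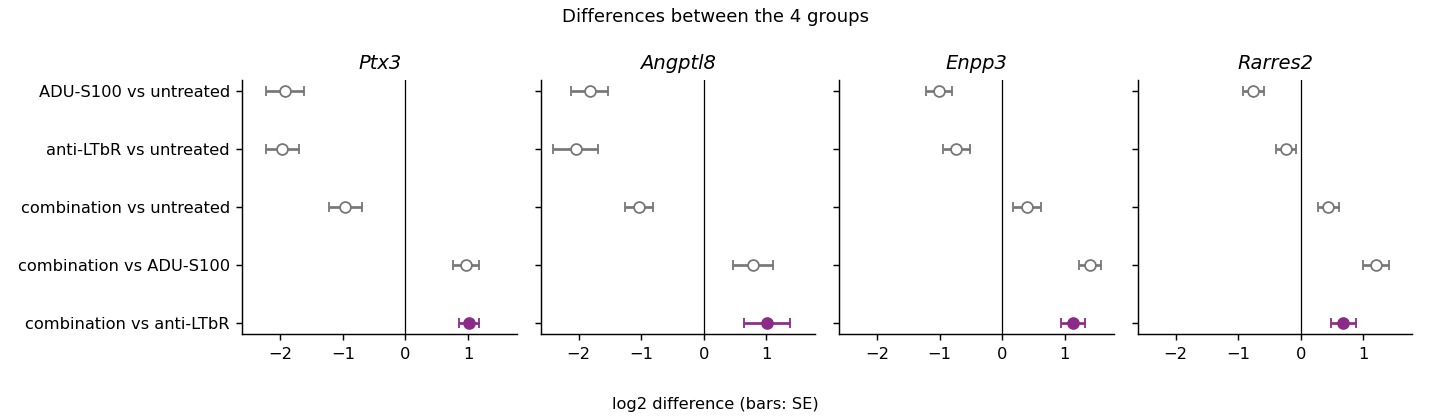
Log2 difference (x axis, bars of 1 SE) of each gene in 5 comparisons of groups of 8 tumors (rows). The filled purple points compare combination with anti-LTbR tumors, which are not the tumors of the comparison that selected the genes, and all 4 lie above 0 (0.68 to 1.13), while the open grey points for ADU-S100 against untreated lie below 0 by construction.

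Set side by side, the log2 differences with ADU-S100 were −1.93 without the antibody and +1.01 with it for Ptx3, and −1.82 and +1.01 for Angptl8. For Enpp3 they were −1.01 and +1.13, and for Rarres2 −0.76 and +0.68. The first value of each pair fixed the choice of the gene, so the difference between the pairs, from 1.44 for Rarres2 to 2.94 for Ptx3, was not tested. Against untreated tumors, the antibody alone gave −1.97 (SE 0.26) for Ptx3, −2.05 (SE 0.36) for Angptl8, −0.74 (SE 0.22) for Enpp3 and −0.24 (SE 0.16) for Rarres2. Combination tumors against untreated gave −0.96 (SE 0.26), −1.03 (SE 0.22), +0.39 (SE 0.22) and +0.44 (SE 0.17) in the same order of genes. The comparisons of ADU-S100, the antibody and the combination with untreated tumors share the untreated tumors, and combination against anti-LTβR tumors uses none of them.

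The promoter regions of Ptx3 and Angptl8 are shown because both genes had the same course over the 4 groups. These are the 250 bases before the start site, 5′ to 3′, from RefSeq on GRCm38.p6, with matches to the motifs searched in capitals. RefSeq's table also held Enpp3.
Ptx3, chr3:66219637-66219886, plus strand: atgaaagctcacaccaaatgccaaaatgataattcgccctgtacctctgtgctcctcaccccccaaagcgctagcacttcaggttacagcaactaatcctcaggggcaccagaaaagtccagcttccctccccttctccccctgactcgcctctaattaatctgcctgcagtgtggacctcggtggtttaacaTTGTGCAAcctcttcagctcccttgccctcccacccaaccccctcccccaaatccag
Angptl8, chr9:21835260-21835509, plus strand: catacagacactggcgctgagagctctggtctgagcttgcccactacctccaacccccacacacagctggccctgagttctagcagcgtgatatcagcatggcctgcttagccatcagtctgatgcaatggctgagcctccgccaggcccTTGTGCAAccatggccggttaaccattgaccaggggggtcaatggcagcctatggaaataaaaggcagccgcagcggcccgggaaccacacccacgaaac
The windows searched, on both strands, reached 50 bases past the start. Both held TTGTGCAA, a match to the C/EBP-type motif TTNNGNAA, beginning at position −57 in Ptx3 and −100 in Angptl8. TTNNGNAA occurs in 40.7% of 32851 promoters of this length, and the exact letters TTGTGCAA, looked up after the match was seen, in 1.01% (331). Ptx3 also held an NF-κB-type match, GGGNNTTCC, on the minus strand from position 2 after the start, a motif found in 5.82% of promoters. RefSeq's window for Enpp3, chr10:24836146-24836445 on the minus strand, lies inside the gene as GENCODE places it in GRCm38 (chr10:24772406-24842823) and not at its 5′ end, so its positions count from the RefSeq start alone. Enpp3 held TATAAA on the minus strand at position −209 (13.6% of promoters) and CCAAT at −41 (37.4%). AP-1 (TGANTCA, 7.81% of promoters), an interferon-type element (GAAANNGAA, 8.56%) and an E-box (CACGTG, 7.15%) matched in none of the 3 windows, and no matches overlapped. A match describes letters only, and binding was not measured.

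Of 9 genes for the known inducers of Ptx3 and their receptors, 4 were called higher and 1 lower in combination against anti-LTβR tumors, beside 11.3% and 15.3% of all genes, with a median log2 difference of 0.27 beside −0.03 over all genes. Tnf rose by 0.89 (SE 0.23, limma adjusted p = 0.00985), Osm, which codes for oncostatin M, by 0.59 (SE 0.19), the IL-1 receptor gene Il1r1 by 0.45 (SE 0.08), and the oncostatin M receptor gene Osmr by 0.27 (SE 0.06). The inducing cytokine genes Il1a (log2 0.34, SE 0.22, limma adjusted p = 0.275), Il1b (0.22, SE 0.14, adjusted p = 0.252) and Il6 (−0.01, SE 0.26, adjusted p = 0.982) were not called. Tlr4, the receptor for bacterial lipopolysaccharide, fell by 0.33 (SE 0.09). Against ADU-S100 tumors, where 20.2% of genes were called higher and 26% lower, combination tumors again had 4 of these genes higher and 1 lower, with Tnf up by 1.39 (SE 0.24). With the antibody alone against untreated tumors, where 7.21% of genes were called higher and 8.1% lower, Osm fell by 0.86 (SE 0.20) and none of the 9 rose. Of 10 genes tested for other pentraxins and partners of fluid-phase recognition, only Fgf2, a growth factor that PTX3 binds, was called in combination against anti-LTβR tumors (log2 −0.47, SE 0.13). In combination against ADU-S100 tumors 3 of the 10 rose and 3 fell. The complement genes C1qa, C1qb and C1qc, whose products bind PTX3, rose by 0.37 to 0.43, while the log2 difference was −0.77 (SE 0.21) for the neuronal pentraxin gene Nptx1, −0.34 (SE 0.09) for the pentraxin receptor gene Nptxr and −0.52 (SE 0.12) for Fgf2.

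Genes around lipoprotein lipase give the setting of Angptl8. Of 11 tested, none rose and 1 fell in combination against anti-LTβR tumors, beside 11.3% and 15.3% of all genes, the lipoprotein receptor gene Vldlr at −0.47 (SE 0.11). The median was 0.23 beside −0.03 over all genes, and Lpl, the lipase itself, averaged 1215 ± 431 (SD, n = 8) with the antibody and 1696 ± 611 (SD, n = 8) in combination tumors. In combination against ADU-S100 tumors 3 rose and 1 fell, beside 20.2% and 26% of all genes. Gpihbp1, the endothelial anchor of the lipase, rose by 0.56 (SE 0.20), Apoe by 0.56 (SE 0.19) and Angptl4 by 0.30 (SE 0.11), and Vldlr fell by 0.56 (SE 0.12). Endothelial lipase Lipg was lower by 1.06 (SE 0.30) with the antibody alone than in untreated tumors.

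Genes of extracellular nucleotide handling, the setting in which ENPP3 works, mostly rose where they changed. Of 14 tested, 6 rose and 1 fell in combination against anti-LTβR tumors, beside 11.3% and 15.3% of all genes, with a median of 0.18 beside −0.03 over all genes. Entpd2, which cleaves ATP outside cells, rose most, by 1.04 (SE 0.18, limma adjusted p = 0.0011), from 176 ± 48.0 (SD, n = 8) to 363 ± 98.1 (SD, n = 8). The adenosine receptor genes Adora2b and Adora2a rose by 0.85 (SE 0.17) and 0.42 (SE 0.13), and the ATP receptor genes P2rx4 and P2rx7 by 0.41 (SE 0.09) and 0.36 (SE 0.09). Nt5e, or CD73, the enzyme that makes adenosine from AMP, fell by 0.54 (SE 0.09). Against ADU-S100 tumors, beside 20.2% of all genes higher and 26% lower, 9 of the 14 rose and 2 fell, among the former Entpd2 at +1.69 (SE 0.23) and Adora2a at +1.08 (SE 0.10). Antibody-alone tumors against untreated, beside 7.21% of all genes higher and 8.1% lower, had 6 of the 14 higher and none lower. Enpp2 rose most there, by 0.97 (SE 0.18), and Nt5e rose by 0.47 (SE 0.09). Enpp1, the best known enzyme that degrades extracellular cGAMP, averaged 568 ± 70.5 (SD, n = 8) with ADU-S100, 618 ± 61.9 (SD, n = 8) with the antibody and 556 ± 93.0 (SD, n = 8) with both, and was not called. Of 9 genes tested for cGAMP sensing and transport, none rose and 2 fell in combination against anti-LTβR tumors, beside 11.3% and 15.3% of all genes. The 2 were the volume-regulated channel genes Lrrc8a (−0.24, SE 0.06) and Lrrc8d (−0.24, SE 0.05). None of 9 interferon-stimulated genes was called in that comparison, in which their median was −0.25. With the antibody alone against untreated tumors, beside 7.21% and 8.1% of all genes, 3 of 9 genes for cGAMP sensing and transport rose and 2 fell.

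The chemerin receptor genes Cmklr1 and Ccrl2 were called higher in combination than in ADU-S100 tumors, and also with the antibody alone than in untreated tumors. Ccrl2 was called higher in combination than in anti-LTβR tumors as well. In combination against ADU-S100 tumors, where 20.2% of all genes were called higher, the 3 tested genes listed with Rarres2 rose: Cmklr1, the signaling receptor, by 0.53 (SE 0.12), Ccrl2, which binds chemerin and presents it to other cells, by 0.77 (SE 0.19), and Rarres1, which shares only the naming for its response to retinoids and is neither ligand nor receptor of chemerin, by 1.97 (SE 0.75). Their median was 0.77 beside −0.02 over all genes. In combination against anti-LTβR tumors, where 11.3% of all genes were higher, 1 of the 3 rose, Ccrl2 by 0.55 (SE 0.15). Antibody-alone tumors against untreated, where 7.21% of all genes were called higher, had 2 of the 3 higher, Ccrl2 by 0.49 (SE 0.13) and Cmklr1 by 0.35 (SE 0.10). Ccrl2 averaged 86.5 ± 16.6 untreated, 107 ± 28.4 with ADU-S100, 122 ± 19.2 with the antibody and 181 ± 42.7 with both (SD, n = 8 each). Of 8 tested genes for proteases listed as processing chemerin, 2 rose and none fell in combination against anti-LTβR tumors, beside 11.3% and 15.3% of all genes. Ctsk, which codes for cathepsin K, rose by 1.34 (SE 0.28, limma adjusted p = 0.00304), and the urokinase gene Plau by 0.45 (SE 0.10). In combination against ADU-S100 tumors, beside 20.2% of all genes higher and 26% lower, 2 of 9 tested rose and 3 fell, with a median of −0.11 beside −0.02 over all genes. Ctsk rose there by 1.56 (SE 0.31) and Plau by 0.45 (SE 0.11), while the log2 difference was −0.31 (SE 0.08) for the tissue plasminogen activator gene Plat and −1.52 (SE 0.50) and −1.11 (SE 0.39) for the mast cell tryptase genes Tpsab1 and Tpsb2. With the antibody alone, where 7.21% of all genes were called higher and 8.1% lower than in untreated tumors, none of 9 rose and 3 fell, and the log2 difference was −2.78 (SE 0.33) for Tpsab1, −2.32 (SE 0.24) for Tpsb2 and −2.15 (SE 0.30) for the chymase gene Cma1.

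**Figure D3:**
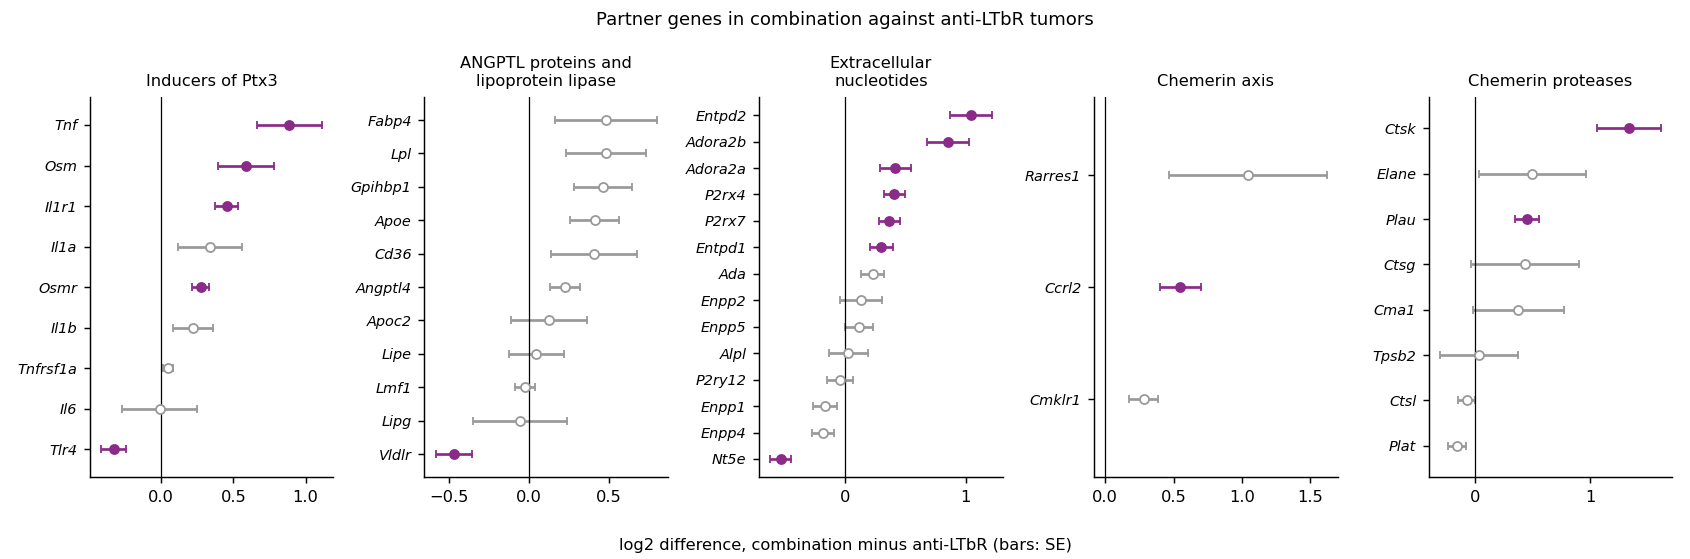
Log2 difference of combination minus anti-LTbR tumors (x axis, bars of 1 SE, 8 tumors per group) for every tested gene of 5 lists (rows), with filled points at an adjusted p under 0.05 by limma. Entpd2 (1.04) and Ctsk (1.34) are the filled points beyond a 2-fold rise, and Nt5e (−0.54) is the filled point furthest below 0.

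In tumor tissue, fewer cells of a type and less RNA per cell cannot be told apart. Fibroblast markers were highest in combination tumors and overlapped between the other groups. The summed level of 9 fibroblast markers ran from 61965 to 98226 in untreated tumors, 42219 to 118316 with ADU-S100, 48992 to 103149 with the antibody and 103982 to 379870 in combination tumors, and none of the 9 was at 0. Endothelial and myeloid markers also had their highest median sums in combination tumors. The summed level of 5 endothelial markers ran from 1345 to 1955 untreated, 1178 to 1779 with ADU-S100, 1525 to 2114 with the antibody and 2312 to 3163 with both, so that combination tumors lay above every other tumor. The median sum of 5 macrophage markers was 12604 untreated, 12373 with ADU-S100, 15031 with the antibody and 18181 with both, and that of 6 neutrophil markers 5510 untreated, 4440 with ADU-S100, 5038 with the antibody and 8883 with both. Neutrophil ranges overlapped between all groups. Macrophage ranges did too, except between ADU-S100 (10289 to 13654) and combination tumors (13824 to 20992). Lymphocyte markers had median sums, in the same order of groups, of 553, 600.01, 852 and 1113 for T cells and 108, 112, 233 and 322 for B cells. Adipocyte markers, which cover a source of Angptl8 and Rarres2, overlapped in all groups, with sums of 9 markers between 1080 and 10338 over the 32 tumors and medians from 2226 untreated to 3006 in combination tumors. By group mean, Plin4 and Fabp4 were higher in combination than in untreated tumors, and the other adipocyte markers were lower. Adipoq averaged 293 untreated, 191 with ADU-S100 and 225 with both, and Cfd 1085, 615 and 600.4. With ADU-S100 all but Pparg had a lower mean than in untreated tumors. The 4 hepatocyte markers summed to between 3.90 and 146, most of it Apoa1, with group means of 30.3 to 54.6. Mast cell markers, of interest for Enpp3, had a median sum of 831 in untreated tumors (653 to 1489), 455 with ADU-S100 (236 to 1535), 336 with the antibody (197 to 397) and 400.03 with both (288 to 658). The range with ADU-S100 thus spanned that of untreated tumors. Not every mast cell marker followed the sum, as Kit averaged 115 untreated, 108 with ADU-S100, 117 with the antibody and 150.0 with both. The 3 basophil markers summed to between 21.2 and 100 in all tumors. Tumor epithelial markers had a median sum of 20365 untreated, 18253 with ADU-S100, 15322 with the antibody and 10698 with both, most of it Krt8, Krt18 and Krt19. Among the weaker markers Krt7 was lower with both agents than untreated (means of 71.4 and 179) and Cdh1 was similar (408 and 414). Epcam (96.7 and 77.5) and Muc1 (35.5 and 30.9) were higher. Skeletal muscle markers varied from 5104 to 324487 between tumors, with median sums of 7870.4 untreated, 74118 with ADU-S100, 96117 with the antibody and 89293 with both. Keratinocyte markers had median sums of 11128 untreated, 4516 with ADU-S100, 4090.4 with the antibody and 15787 with both. What part of the differences in the 4 genes goes with these cell types was not tested.

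Within groups, Enpp3 and Rarres2 followed the fibroblast markers from tumor to tumor. Over 32 tumors with each group's mean removed, the mean log2 level of the fibroblast markers correlated with Rarres2 at r = 0.74 and rho = 0.75 (permutation p = 3e-05, adjusted p = 0.00140 over 56 pairs of a gene and a marker list), and r was 0.66 without the 2 tumors farthest from the median. Inside single groups r was 0.02 without treatment, 0.86 with ADU-S100, 0.73 with the antibody and 0.91 with both. Enpp3 correlated with the same markers at r = 0.60 and rho = 0.67 (permutation p = 0.00022, adjusted p = 0.00411), with r of 0.60 without 2 tumors and between 0.33 and 0.83 inside single groups. For Ptx3 and Angptl8 the corresponding r was 0.17 and 0.15, with adjusted p = 0.826 for both by the permutation test. Rarres2 also correlated negatively with skeletal muscle markers at r = −0.68 and rho = −0.66 (permutation p = 5e-05, adjusted p = 0.00140, r = −0.68 without 2 tumors) and with keratinocyte markers at r = 0.52 and rho = 0.50 (permutation p = 0.00346, adjusted p = 0.0484 for r, r = 0.52 without 2 tumors), where the adjusted p of rho was 0.0627. The paired values come from the same library, and whether the amount of muscle RNA in a library bears on its Rarres2 level was not tested. The other 52 pairs had adjusted p-values above 0.05 for r and rho.

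**Figure D4:**
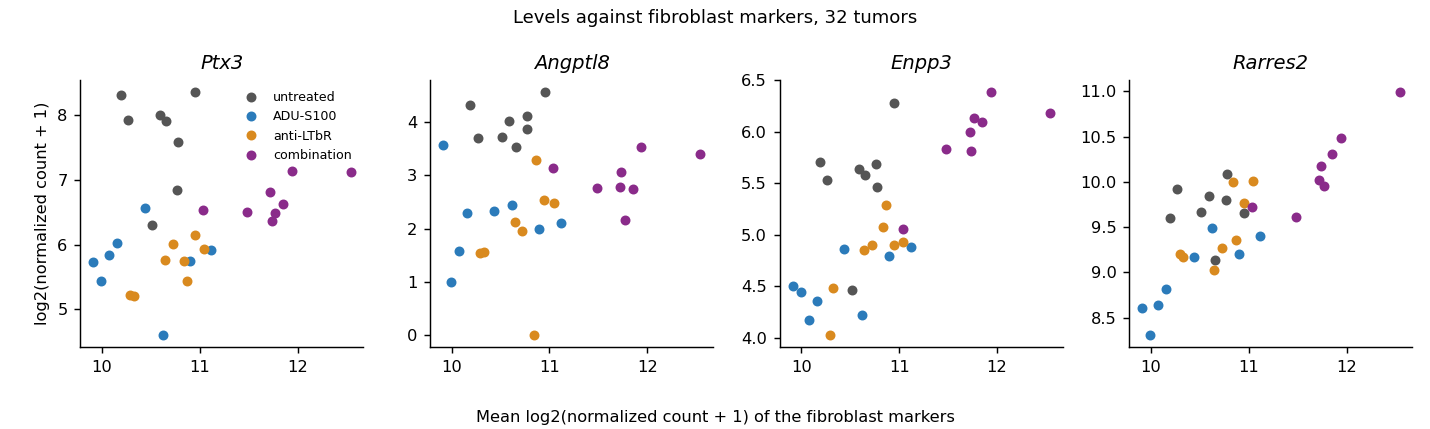
Log2(normalized count + 1) of each gene (y axis) against the mean log2(normalized count + 1) of 9 fibroblast markers (x axis) in 32 tumors, coloured by group. Rarres2 and Enpp3 rise along the marker axis and combination tumors lie to the right, while most untreated tumors of Ptx3 and Angptl8 lie above the others at similar marker levels.

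Among the 4 genes themselves, Ptx3 and Enpp3 varied together within groups at r = 0.63 and rho = 0.52 (permutation p = 0.00019, adjusted p = 0.00114 for r and 0.0227 for rho over 6 pairs). The value was between 0.54 and 0.79 inside each of the 4 groups, and r was 0.47 without untreated tumor 6, which was lowest for both genes in its group, and ADU-S100 tumor 1. Enpp3 and Rarres2 gave r = 0.34 and rho = 0.46 (permutation p = 0.0567, adjusted p = 0.170 for r, and p = 0.0151, adjusted p = 0.0452 for rho), so the call depended on the measure. Ptx3 and Angptl8, which shared their course over the groups, gave r = 0.20 and rho = 0.39 within groups (permutation p = 0.231, adjusted p = 0.348 for r, and p = 0.0317, adjusted p = 0.0634 for rho). The remaining pairs had r between 0.12 and 0.21.

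The genes whose level over all 32 tumors was most like each of the 4 genes are given as a description without a test. They were sought among 17652 genes with at least 10 normalized counts in at least 8 tumors. For Rarres2 the nearest were Cpxm1 (r = 0.92), Thy1 (0.91), Mmp3 (0.90) and Cnrip1 (0.89), with r of 0.82 to 0.84 once group means were removed. Thy1 is a surface protein of fibroblasts and T cells, and Mmp3 codes for stromelysin. For Enpp3 they were Ccdc80 (0.91), the integrin gene Itga11 (0.84), the gelatinase gene Mmp2 (0.83), Tgfb1i1 (0.83) and the collagen gene Col5a2 (0.82), with r of 0.64 to 0.84 without group means. Ptx3 was nearest to Nucb2 (0.79), Angptl8 (0.74), Gm6142 (0.73), Enpp3 (0.72) and the ribosomal gene Rplp0 (0.72). Angptl8 was nearest to Ptx3 (0.74), Ap2m1 (0.70), Dhdds (0.70), Gm6286 (0.68) and Nucb2 (0.68), so Nucb2 was among the 5 nearest of both. For the pair of Ptx3 and Angptl8 the value of 0.74 over all tumors fell to 0.20 within groups.

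In the second experiment, where 3 of the 4 genes have values and Angptl8 was not analysed, none had a lower mean in the libraries lettered B than in those lettered A. The description in the labels names A as control, B as ADU-S100, C as the antibody and D as the combination, while the treatment field reads combination for all 20 libraries, so only letters are used here. The summed level of 4 B cell markers was 49.1 to 92.6 in the A libraries and 51.0 to 218 in B, against 219 to 2872 in C and 376 to 2686 in D, so every C and D library lay above every A and B library, though B1 (218.1) and C5 (219.02) were nearly equal. No treatment was assigned from these values. Libraries C3 and D3 stood apart, with summed macrophage markers of 98067 and 271051 where the other 18 lay between 13237 and 36145, and D3 had the fewest reads (8716257 against 16006599 or more). By the normalization 1 read was worth 3.78 normalized counts in D3 and 1.38 in C3, against 0.78 to 0.96 in the other 18. Ptx3 was 9.44, 26.0, 65.4, 34.1 and 76.4 in the A libraries and 204, 44.2, 154, 98.3 and 30.9 in the B libraries. Ptx3 was thus higher in B by 1.30 on the log2 scale (SE 0.64, interval −0.11 to 2.70), which did not pass (limma adjusted p = 0.613, exact permutation p = 0.119). Enpp3 differed by +0.76 (SE 0.57, interval −0.51 to 2.02, exact permutation p = 0.278) and Rarres2 by +0.80 (SE 0.58, interval −0.48 to 2.09, exact permutation p = 0.262). Fibroblast markers in the B libraries were highest in B1 and B3, with sums of 195767 and 185693 against 37539 to 54056 in the other 3. B1 and B3 were also the 2 highest B libraries for Ptx3, Enpp3 (93.5 and 73.6) and Rarres2 (2405 and 1609.9). No gene was called in either direction in the 3 comparisons of letters by limma (0% of 14964 to 15317 genes), with 551 to 1231 genes at an unadjusted p under 0.05, and 252 splits of 10 libraries allow no exact p below 0.00794.

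Rarres2 was the gene that varied most in the second experiment. It was 945, 1301, 9902, 1219 and 582 in the C libraries and 1714, 2710.2, 23447, 1607 and 5359.7 in the D libraries, with C3 and D3 highest in each group. Before normalization Rarres2 had 7167 reads in C3, 6207 in D3 and 5586 in D5, so the height of D3 rests largely on its size factor. D exceeded B by 2.22 (SE 0.78, interval 0.51 to 3.93), with an exact permutation p of 0.0397 and a limma adjusted p of 0.512, and 3 of 5 D libraries lay above every B library. D exceeded C by 1.35 (SE 0.86, interval −0.53 to 3.23, exact permutation p = 0.222) and by 1.38 without C3 and D3 (limma adjusted p = 0.168). Ptx3 was higher in D than in C by 0.80 (SE 0.47, interval −0.24 to 1.84, exact permutation p = 0.127), and 4 of 5 D libraries exceeded every C library while D3, with 9 reads, lay below all of them. Ptx3 in D and B libraries differed by 0.23 (SE 0.61, exact permutation p = 0.746). Enpp3 showed no difference that these libraries could resolve, at −0.01 between D and C (SE 0.56, interval −1.24 to 1.22) and −0.07 between D and B (SE 0.62, interval −1.43 to 1.29), and the former turned to +0.46 without C3 and D3.

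**Figure D5:**
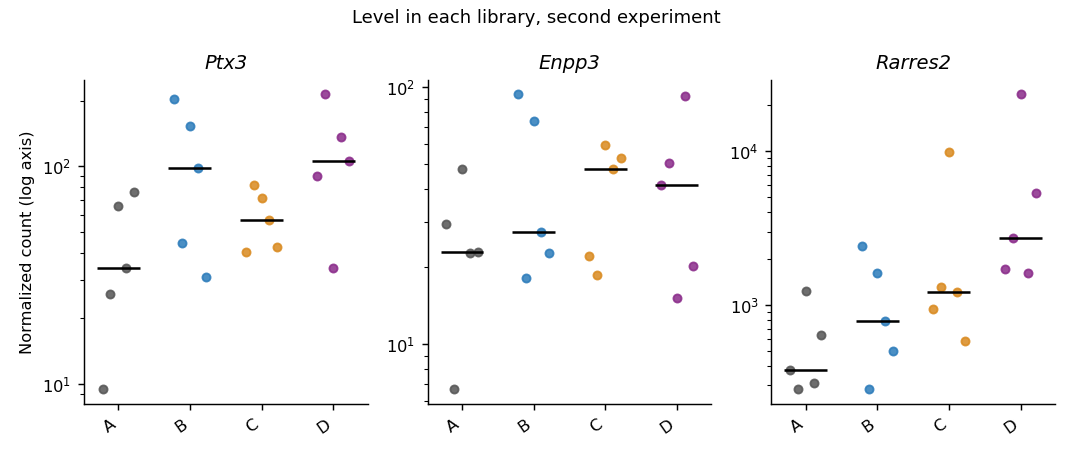
Normalized count (y axis, log scale) of Ptx3, Enpp3 and Rarres2 in each of 5 libraries per letter (x axis) of the second experiment, with the median as a line. The median of the B libraries lies above that of the A libraries for each of the 3 genes, and C3 (9902) and D3 (23447) are the points far above the rest for Rarres2.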

How the data were processed

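Bulk RNA-seq of 32 KPC tumors, 8 in each of 4 groups, and of 20 libraries of a second experiment was analysed from the deposited tables. The values the authors deposited are a normalized signal (each gene's reads over a size factor of the library), in a table of 32 libraries and in a larger table of 52. The submitters' processing notes name cutadapt 1.9, HISAT2, StringTie, STAR and Partek with mm39, without saying which made which table. In the larger table low values were whole multiples of the worth of 1 read (100% within 0.02 of a whole number), so whole reads were recovered there; it has no row for Angptl8. A deposited table of the authors' own gene set enrichment was not used.

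The 4 genes and the gene and marker lists were chosen with earlier results of these data known. Groups and tumor numbers follow the sample labels. Nothing in the labels ties a tumor to an animal batch or says whether tumors shared a mouse, and each tumor was counted as 1 replicate. For its bulk RNA-seq the paper names 1 experiment for the gene levels but also says that 2 independent experiments were combined. The labels divide no group of the main experiment in this way, and no such term was fitted. Tests used limma 3.58.1 (R 4.3.3, trend) on log2(normalized count + 1), over genes that filterByExpr kept at a minimum count of 10, with Benjamini-Hochberg adjustment over all genes tested and an adjusted p of 0.05 as threshold. Only the 2 groups compared entered a fit. The 4 genes received no p in comparisons that use untreated or ADU-S100 tumors. Single genes were also tested by exact permutation, and correlations by 100000 permutations within groups. All p-values are two-sided.

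Alternatives were edgeR 4.0.16 (TMM or RLE) and DESeq2 1.42.0 on recovered reads, a pseudocount of 0.1, no filter, a joint fit of 4 groups, the replicate number as a block, the other table, and each library left out. Leaving out C3 and D3 together was chosen after seeing the data. Log2 differences understate changes of genes with few reads, such as Angptl8, and intervals for a count of 0 cover counting error only. The genes named are the 4 genes, the 5 genes most correlated with each, and members of the lists that were called with at least a 2-fold change or whose role is described, plus C1rb, chosen after its value was seen. Some items that this rule would name are not reported here.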

Additional observations from a re-analysis of the deposited data

Results flagged for a closer look

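In 28 groups of 5 or 8 libraries checked, 3 single values stood apart from the rest of their group by Dixon's criterion, which chance alone exceeds in about 1 of 20 groups. Angptl8 in ADU-S100 tumor 4 was 10.8 normalized counts, where the other 7 tumors of the group were at 4.41 or below. Rarres2 in library C3 of the second experiment was 9902, and in library D3 it was 23447, and both libraries also had the highest macrophage marker sums of the 20. A read was also worth more normalized counts in these libraries than in any other of the 20.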

How the results depend on the processing

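In combination against anti-LTβR tumors, Ptx3, Enpp3 and Rarres2 kept their direction and passed an adjusted p of 0.05 under all 24 alternatives, at log2 differences of 0.94 to 1.08, 1.02 to 1.26 and 0.56 to 0.76, with the highest adjusted p at 0.00367, 0.00289 and 0.0367. Angptl8 failed the filter in the fit of these 2 groups and has a value there only without it (adjusted p = 0.0776). Of the alternatives only the joint fit of 4 groups gave one (1.01, adjusted p = 0.0286), which it enters through the untreated tumors that selected it, so that p supports nothing. The replicate block changed none of these calls: the tumor numbers do not pair the tumors (mean correlation of deviations 0.18 and 0.19 for combination against anti-LTβR and ADU-S100 against untreated, lowest −0.23 and −0.08).

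Against untreated tumors the directions held throughout. Genes called with ADU-S100 alone numbered 46 higher and 11 lower by DESeq2, 0 and 1 by edgeR with TMM or RLE, 0 and 1 in the joint fit and 1 and 1 with the replicate block, and 0 to 6 lower when 1 tumor was left out (6 without untreated tumor 6, 1 without ADU-S100 tumor 4). Genes lower with anti-LTβR numbered 840 with the replicate block and 737 to 1615 when 1 tumor was left out, lowest without untreated tumor 1, and 880 and 841 without untreated tumor 4 and anti-LTβR tumor 7.

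In the second experiment DESeq2 called 217 genes higher and 24 lower in B against A, 107 and 7 in D against B, and 252 and 21 in D against C, where limma called none, and leaving out 1 library gave at most 1 (without A5) and 2 (without B1). Leaving out 1 library moved Ptx3 in D against B between −0.12 and 0.61, turning it without B5 or D2, Enpp3 in D against B between −0.40 and 0.25, turning it without B1, B3, D3 or D5, and Enpp3 in D against C between −0.34 and 0.29, turning it without C3, C4, C5, D3 or D5. Enpp3 in D against C was 0.13, 0.15 and 0.16 by edgeR with TMM, edgeR with RLE and DESeq2, and 0.46 without C3 and D3.

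With a pseudocount of 0.1, correlations of Angptl8 changed sign with Rarres2 (−0.0015), adipocyte (−0.0022), basophil (0.011) and skeletal muscle markers (0.11), none past the threshold. Rarres2 with tumor epithelial markers passed in the larger table (r = 0.52). Angptl8, at 0 to 23 reads per tumor, limits what depth can resolve.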
